A study of Mus musculus with 11 samples.

Results

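The myeloid C-type lectin receptors examined were Clec7a, Clec4n, Clec4d, Clec4e, Clec4a1, Clec4a2, Clec4a3, Clec12a and Clec5a. They were taken by symbol from the deposited gene counts, which held all 9 among 25677 genes, and all 9 passed the filter on low counts in every comparison. Kidney RNA was sequenced from 3 healthy mice as controls (Ctr), 4 MRL/lpr mice left untreated (Lpr) and 4 treated with DNase I (DNase), also MRL/lpr, with 1 library per mouse. Ctr mice were C57B6 in the labels and C57BL/6J in the methods of the study, and all mice were female and 21 weeks old. Both MRL/lpr groups share the lpr mutation of Fas and the MRL background, whereas Ctr had neither, so strain and disease cannot be told apart in any comparison with Ctr. DNase I, an enzyme that digests extracellular DNA, was injected daily into the peritoneum in the weeks before the kidneys were taken, and whether Lpr mice received sham injections is not given in the sources used here.

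C-type lectin receptors are surface proteins by which monocytes, macrophages, neutrophils and dendritic cells recognise sugars and lipids of microbes and products of dying cells. Activating members signal through an ITAM, a tyrosine motif held in their own tail or in the partner chains Fcer1g and Tyrobp, to the kinase Syk and the scaffold Card9. Inhibitory members carry an ITIM, a tyrosine motif that recruits the phosphatases Ptpn6 and Inpp5d.

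All 9 genes lie on chromosome 6 of the GRCm38 (mm10) build. Clec4a1 (chr6:122921848-122934619), Clec4a3 (chr6:122952515-122969875), Clec4a2 (chr6:123106428-123143999), Clec4n (chr6:123229843-123247021) and Clec4d (chr6:123262111-123275265) lie on the plus strand, followed by Clec4e (chr6:123281789-123289870) on the minus strand, within a stretch of 368023 bases. Clec12a (chr6:129342691-129365303, plus strand) and Clec7a (chr6:129461591-129472779, minus strand) lie within a second stretch of 130089 bases, and Clec5a (chr6:40574894-40585821, minus strand) stands alone. The annotation types Clec7a as a polymorphic pseudogene and the other members as protein coding, and whether this bears on Clec7a in these strains was not tested. Clec4d and Clec4e, whose products pair at the cell surface, are neighbours that face each other. No exon of the 9 genes overlapped an exon of another annotated gene, but Clec4a2 shared a run of 436 bases at 96.3% identity with Clec4b1 and one of 301 bases at 95.3% with Clec4a4, so reads on these 3 genes may have been split between them.

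RefSeq promoters (GRCm38.p6, from 250 bases before to 50 bases after the start) were found for 8 of the 9 genes, with 2 each for Clec7a and Clec4a3. The letters GAGGAA, the core that the myeloid factor PU.1 binds, were present on either strand in 8 of these 10 promoters and in 28.3% of all 32851 mouse promoters. The 10 promoters overlap within Clec7a and within Clec4a3, so they are not 10 separate sequences. Clec4d held 3 matches, Clec4e, Clec12a, Clec5a and Clec4a1 held 2 each, each Clec7a promoter and 1 of the Clec4a3 promoters held 1, and Clec4a2 held none. The promoters of the neighbours Clec4d and Clec4e, of Clec7a, the gene with the highest mean level per length, and of Clec4a2, the gene without a match, are shown with GAGGAA, or TTCCTC where it lies on the other strand, in capitals. They are Clec4d (chr6:123261857-123262156, plus strand), Clec4e (chr6:123289822-123290121, minus strand), Clec7a (chr6:129472730-129473029, minus strand, 1 of its 2 promoters) and Clec4a2 (chr6:123122440-123122739, plus strand).
Clec4d: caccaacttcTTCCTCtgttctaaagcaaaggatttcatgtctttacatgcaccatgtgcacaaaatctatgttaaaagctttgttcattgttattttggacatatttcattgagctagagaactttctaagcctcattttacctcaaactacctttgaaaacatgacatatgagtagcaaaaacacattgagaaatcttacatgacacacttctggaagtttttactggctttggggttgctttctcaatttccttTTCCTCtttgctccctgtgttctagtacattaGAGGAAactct
Clec4e: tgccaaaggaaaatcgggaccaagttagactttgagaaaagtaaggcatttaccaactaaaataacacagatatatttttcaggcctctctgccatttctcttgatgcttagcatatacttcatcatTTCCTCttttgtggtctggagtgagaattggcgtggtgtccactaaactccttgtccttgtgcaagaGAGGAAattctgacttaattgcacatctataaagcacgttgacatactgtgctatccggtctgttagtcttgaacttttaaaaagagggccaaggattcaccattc
Clec7a: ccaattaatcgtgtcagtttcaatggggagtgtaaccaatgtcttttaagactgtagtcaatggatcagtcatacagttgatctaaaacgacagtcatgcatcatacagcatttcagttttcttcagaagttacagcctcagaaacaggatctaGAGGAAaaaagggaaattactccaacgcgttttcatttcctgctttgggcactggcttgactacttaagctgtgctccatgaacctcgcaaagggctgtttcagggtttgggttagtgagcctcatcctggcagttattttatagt
Clec4a2: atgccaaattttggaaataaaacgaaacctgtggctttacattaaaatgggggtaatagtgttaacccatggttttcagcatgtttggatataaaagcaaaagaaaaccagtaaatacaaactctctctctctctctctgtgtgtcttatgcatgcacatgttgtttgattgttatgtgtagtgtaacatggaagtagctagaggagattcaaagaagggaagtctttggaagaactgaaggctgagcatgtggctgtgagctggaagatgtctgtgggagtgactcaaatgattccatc
Other motifs were also searched on both strands. The NF-kappaB motif was found in 1 of the 10 promoters (Clec4a1) and in 20.7% of all promoters, TGANTCA (AP-1) in 2 (Clec12a and Clec4a2) and in 7.81%, the IRF motif in 1 (Clec4d) and in 3.44%, and TTGCNNAA (C/EBP) in 2 (Clec12a and Clec4e) and in 10.8%. A match describes these letters only and is not evidence of binding.

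The libraries held 33469858 to 38460873 gene counts each. Lpr replicate 3 stood apart from the other kidneys. With each gene set against its average over the 11 kidneys, the slope of its log2 expression on log2 gene length was -0.385, against -0.0413 to 0.0743 in the other 10, so that short genes read higher in it. The 12 kidney markers, genes of tubules and podocytes, summed to 17060 to 18630 CPM (counts scaled to the size of the library) in Ctr, 10610 to 15840 CPM in Lpr and 13740 to 17490 CPM in DNase. The Lpr sums lay wholly below those of Ctr, and 10 of the 12 markers had a log2 fold change below 0 in Lpr versus Ctr. The median of the 12 was -0.42, against 0.03 over all genes tested, and 0 were called in any comparison. The part of this shift in the receptor levels was not tested. Levels are given in CPM scaled by TMM, and a gene was called changed at a Benjamini-Hochberg adjusted p under 0.05 in edgeR's quasi-likelihood test with an absolute log2 fold change above 2.

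All 9 receptor genes were higher in Lpr than in Ctr. The call higher was met by 9 of 9, against 4.65% of the 16074 genes tested, and every Lpr kidney lay above every Ctr kidney for 9 of 9, against 14.4% of genes. No member was called lower, against 1.13% of genes. The median log2 fold change was 3.60 over the 9 and 0.03 over all genes tested. Their summed level was 7.09 to 13.0 CPM in Ctr, 91.3 to 177.7 CPM in Lpr and 76.1 to 164.9 CPM in DNase. In whole kidney, more cells that carry a receptor and more RNA per cell cannot be told apart. The sum of 15 monocyte and macrophage markers was 293.7 to 367.0 CPM in Ctr, 1318 to 2541 CPM in Lpr and 1017 to 1856 CPM in DNase, and 10 of these 15 were called higher in Lpr than in Ctr.

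**Figure D1:**
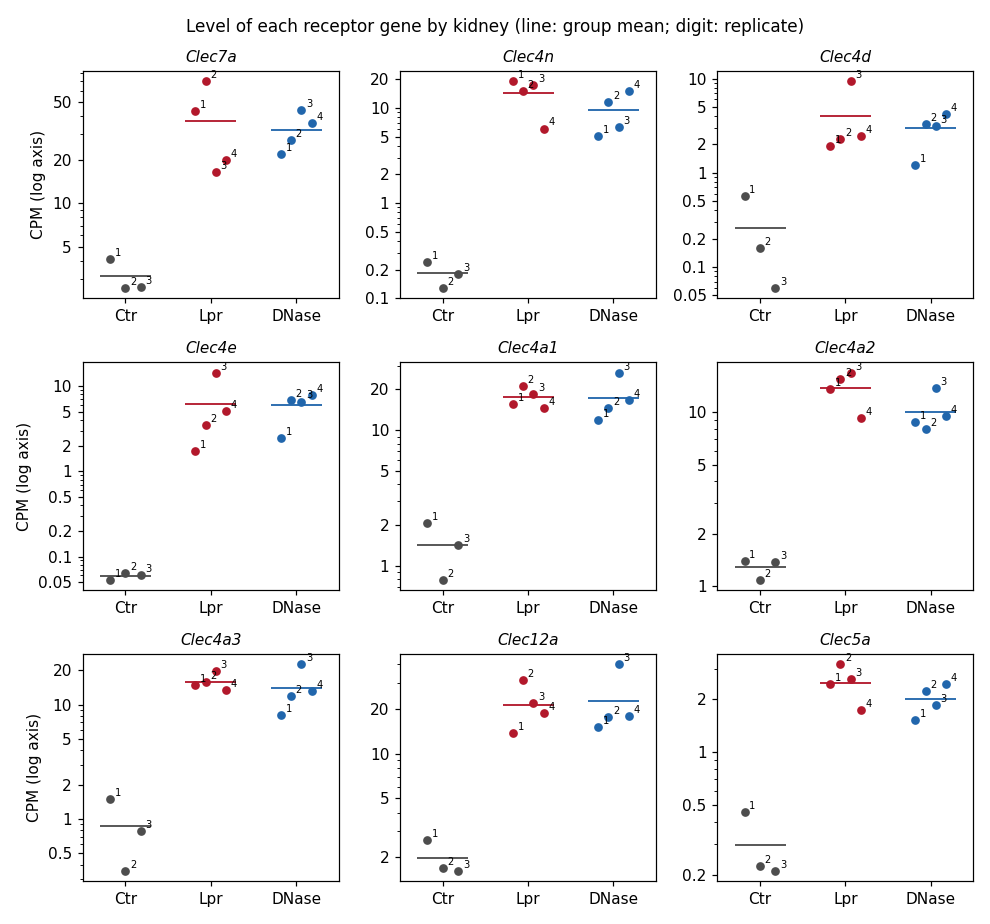
Level of each of the 9 receptor genes in CPM on a log axis for 3 Ctr, 4 Lpr and 4 DNase kidneys, where each point is a kidney with its replicate number and each line is the group mean. For all 9 genes the Lpr and DNase points lie above the Ctr points and overlap each other, with Clec4d in Lpr replicate 3 (9.38 CPM) and Clec12a in DNase replicate 3 (40.1 CPM) apart from their groups.

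Clec7a encodes Dectin-1, the receptor for fungal beta-glucan, which carries its own ITAM-like motif. Clec7a was at 4.10, 2.58 and 2.64 CPM in the 3 Ctr kidneys, at 43.1, 69.9, 16.4 and 19.8 CPM in Lpr replicates 1 to 4 and at 21.9, 27.3, 43.9 and 35.6 CPM in DNase replicates 1 to 4. The Lpr kidneys spread over the whole DNase range and beyond it, with replicate 3 lowest. Clec7a was 12.0-fold higher in Lpr than in Ctr (95% interval 4.92 to 29.4; log2 fold change 3.59 ± 0.57 SE, edgeR adjusted p = 0.0048).

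Clec4n encodes Dectin-2, a receptor for mannans that signals through Fcer1g. Its levels were 0.241, 0.128 and 0.180 CPM in Ctr, 19.2, 14.9, 17.6 and 6.09 CPM in Lpr and 5.05, 11.6, 6.30 and 15.2 CPM in DNase, in replicate order. Lpr replicates 2 and 4 lay inside the DNase range, and Lpr replicates 1 and 3 lay above it. Clec4n was 76.9-fold higher in Lpr than in Ctr (95% interval 33.02 to 178.9; log2 fold change 6.26 ± 0.54 SE, adjusted p = 0.00052), on 4 to 9 counts per Ctr kidney.

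Clec4d encodes MCL, and Clec4e encodes Mincle, which recognises mycobacterial cord factor and the nuclear protein Sap130 released by dead cells. Both signal through Fcer1g. Clec4d was at 0.563, 0.160 and 0.0599 CPM in Ctr, at 1.91, 2.29, 9.38 and 2.45 CPM in Lpr and at 1.21, 3.26, 3.14 and 4.19 CPM in DNase. Clec4e was at 0.0537, 0.0638 and 0.0599 CPM in Ctr, at 1.72, 3.52, 14.4 and 5.15 CPM in Lpr and at 2.45, 6.82, 6.60 and 7.95 CPM in DNase. Both genes were highest of all kidneys in Lpr replicate 3, the library in which Clec7a was lowest of the Lpr group, and DNase replicate 1 was the lowest of its group for both. In the gene lengths behind the deposited values Clec4d had 1336 bases, Clec7a 2150 and Clec4e 3015, and the part of the length slope of Lpr replicate 3 in these levels was not tested. Clec4d was 14.9-fold higher in Lpr than in Ctr (95% interval 3.68 to 59.9; log2 fold change 3.89 ± 0.88 SE, adjusted p = 0.025). This call was lost without Ctr replicate 2 (adjusted p = 0.107) and without Ctr replicate 3 (adjusted p = 0.0877), and the log2 fold change was 3.05 without Lpr replicate 3 and 5.16 without Ctr replicate 1, the Ctr kidney with the highest level. Clec4e had 2 counts in each Ctr kidney, under the floor of 3 counts, so its pooled ratio is given, 102 in Lpr over Ctr with an interval of 46.8 to 279 that covers counting error only. Its fitted adjusted p was 0.0029, and without Lpr replicate 3 its fitted log2 fold change moved from 6.63 to 5.80.

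Clec5a encodes MDL-1, which signals through Tyrobp and Hcst. Clec5a was at 0.456, 0.223 and 0.210 CPM in Ctr, at 2.45, 3.18, 2.62 and 1.74 CPM in Lpr and at 1.52, 2.23, 1.86 and 2.44 CPM in DNase. Its Lpr and DNase ranges overlapped and neither reached the Ctr range. It had the smallest change of the 9, 8.29-fold in Lpr over Ctr (95% interval 4.18 to 16.4; log2 fold change 3.05 ± 0.43 SE, adjusted p = 0.0030).

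Clec4a2 encodes DCIR, the inhibitory receptor of dendritic cells and macrophages with an ITIM, and Clec4a1 and Clec4a3 encode its relatives DCIR4 and DCIR3. Clec4a2 was at 1.40, 1.08 and 1.38 CPM in Ctr, at 13.6, 15.6, 17.0 and 9.27 CPM in Lpr and at 8.82, 8.07, 13.8 and 9.49 CPM in DNase. It was 10.8-fold higher in Lpr than in Ctr (95% interval 6.78 to 17.1; log2 fold change 3.43 ± 0.29 SE, adjusted p = 0.00052). Lpr replicates 2 and 3 lay above the highest DNase kidney, and Lpr replicates 1 and 4 lay inside the DNase range. Clec4a1 was at 2.07, 0.798 and 1.44 CPM in Ctr, at 15.7, 21.3, 18.4 and 14.5 CPM in Lpr and at 11.8, 14.6, 26.6 and 16.7 CPM in DNase. Clec4a3 was at 1.502, 0.351 and 0.779 CPM in Ctr, at 14.9, 15.7, 19.6 and 13.4 CPM in Lpr and at 8.19, 12.0, 22.7 and 13.2 CPM in DNase. For both, DNase replicate 3 was the highest of all kidneys and DNase replicate 1 the lowest of the MRL/lpr kidneys. Clec4a1 was 12.1-fold higher in Lpr than in Ctr (log2 fold change 3.60 ± 0.35 SE, adjusted p = 0.00068) and Clec4a3 17.9-fold (log2 fold change 4.16 ± 0.46 SE, adjusted p = 0.0010). Without Ctr replicate 1 the log2 fold change of Clec4a3 was 4.80.

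Clec12a encodes MICL, an inhibitory receptor with an ITIM that binds uric acid crystals. Clec12a was at 2.60, 1.69 and 1.62 CPM in Ctr, at 13.8, 31.2, 21.8 and 18.9 CPM in Lpr and at 15.1, 17.5, 40.1 and 18 CPM in DNase. DNase replicate 3 was again the highest kidney, and the other 3 lay within 15.1 to 18 CPM. Clec12a was 10.9-fold higher in Lpr than in Ctr (95% interval 6.23 to 18.9; log2 fold change 3.44 ± 0.35 SE, adjusted p = 0.00073).

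No receptor gene was called between DNase and Lpr. The count was 0 of 9, against 0% of 15832 genes tested, and none of the 9 had an unadjusted p under 0.05, which 5.6% of genes (886) had. DESeq2 called 5 genes of all tested and 0 of the 9. For all 9 genes the DNase and Lpr kidneys overlapped, whereas every DNase kidney lay above every Lpr kidney for 1.92% of all genes and below for 1.87%. The log2 fold change was above 0 for 2 of 9, against 47.1% of all genes, and its median was -0.21 against -0.02 over all genes. The lowest value was that of Clec4n, -0.60 (95% interval -1.53 to 0.34, adjusted p = 0.854), and Clec4a2 had the smallest unadjusted p, 0.0864, at -0.46 (-0.99 to 0.08). The highest was that of Clec12a, 0.09 (-0.69 to 0.87), which was -0.34 without DNase replicate 3. The intervals of Clec4d (-1.69 to 0.82) and Clec4e (-1.38 to 1.28) were the widest, and without Lpr replicate 3 their log2 fold changes turned from -0.44 and -0.05 to 0.41 and 0.78. All 9 intervals lay inside the fold threshold of 2 on the log2 scale, and none left out a change of 0.

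**Figure D2:**
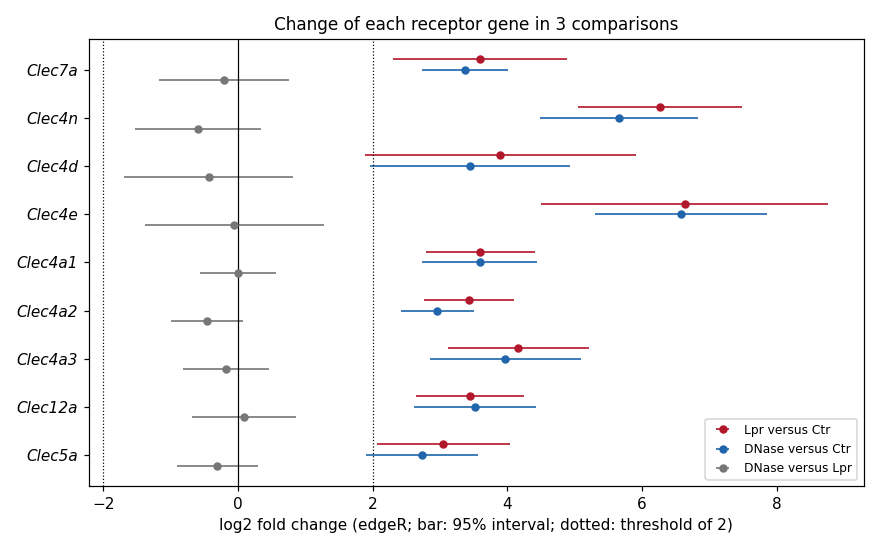
Log2 fold change of each receptor gene from edgeR with its 95% interval for Lpr versus Ctr (red), DNase versus Ctr (blue) and DNase versus Lpr (grey), with dotted lines at the threshold of 2 in both directions. The red and blue points lie between 2.73 and 6.63, every grey interval spans 0, and the fits of Clec4e against Ctr rest on 2 counts per Ctr kidney.

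DNase kidneys stayed above Ctr. All 9 were called higher, against 4.56% of 16100 genes tested, and every DNase kidney lay above every Ctr kidney for 9 of 9, against 18% of genes. None was called lower, against 1.45%. This comparison shares Ctr with the first and the DNase kidneys with the second, so it is not a separate line of evidence. The log2 fold changes were 3.37 for Clec7a, 5.66 for Clec4n, 3.45 for Clec4d, 3.59 for Clec4a1, 2.96 for Clec4a2, 3.97 for Clec4a3, 3.52 for Clec12a and 2.73 for Clec5a. The adjusted p ranged from 3.9e-05 for Clec4a2 to 0.0050 for Clec4d. For Clec4e the pooled ratio was 102 (46.7 to 279, counting error only). Without Ctr replicate 1 the log2 fold change was 4.72 for Clec4d and 4.61 for Clec4a3. On log2(FPKM + 1), which understates changes of low genes, limma called 5 of the 9 here and 6 in Lpr versus Ctr.

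Levels of different genes were compared per length, as deposited FPKM. Clec7a had the highest mean in all 3 groups, 1.40 ± 0.41 FPKM in Ctr (SD, n = 3), 17.5 ± 12.1 in Lpr (n = 4) and 15.5 ± 4.6 in DNase (n = 4). In Ctr it was followed by Clec4a1, Clec12a, Clec4a3, Clec4a2, Clec4d, Clec4n, Clec5a and Clec4e, and neighbours in this order overlapped except Clec5a and Clec4e. In Lpr the order was Clec7a, Clec4a3 (11.8 FPKM), Clec4n (11.4), Clec4a1 (11.2), Clec12a (9.61), Clec4a2 (4.89), Clec4d (2.89), Clec4e (1.98) and Clec5a (0.648), where only Clec12a and Clec4a2 did not overlap. In DNase the order was Clec7a, Clec4a1, Clec4a3, Clec12a, Clec4n (7.87), Clec4a2, Clec4d, Clec4e (2.04) and Clec5a (0.543), where only Clec4e and Clec5a did not overlap.

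The make-up of the family in Ctr lay apart from that in both MRL/lpr groups for Clec4n and Clec5a, which is given as a description without a test. Clec4n made up 2.86 to 3.42% of the summed FPKM of the 9 genes in Ctr, 9.92 to 21.9% in Lpr and 5.78 to 18.1% in DNase. Clec4e made up 0.262 to 0.617% in Ctr, 0.808 to 6.24% in Lpr and 2.03 to 4.01% in DNase. For Clec4n neither MRL/lpr range reached the Ctr range, and the Ctr shares of Clec4e rest on 2 counts per kidney, under the floor of 3, so no separation is read from them. The FPKM ratio of Clec4n to Clec4a1, a gene of the same stretch, was 0.146 to 0.200 in Ctr, 0.524 to 1.53 in Lpr and 0.296 to 1.14 in DNase. Clec5a had its higher share in Ctr, 1.30 to 1.76%, against 0.892 to 0.922% in Lpr and 0.555 to 1.03% in DNase. Clec7a made up 9.95% in Lpr replicate 3 and 18.7 to 34.8% in the other Lpr kidneys. Shares sum to 100% within a kidney, so a larger share of one gene lowers those of the rest, and the part of the length slope of Lpr replicate 3 in its shares was not tested.

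**Figure D3:**
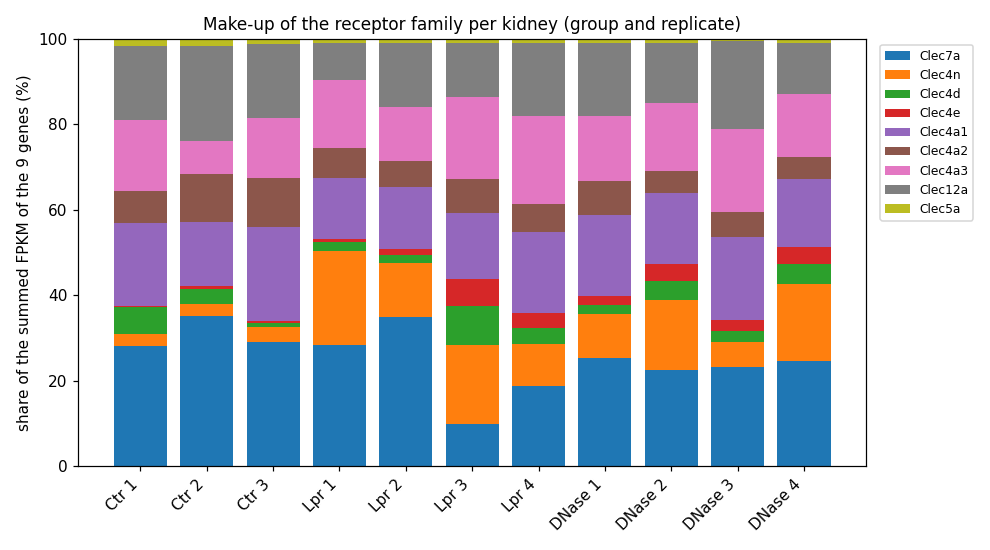
Share of each receptor gene in the summed FPKM of the 9 genes, in percent, for each of the 11 kidneys, with the genes stacked in 1 bar per kidney. Clec4n (orange) takes 2.86 to 3.42% in Ctr and 5.78 to 21.9% in the MRL/lpr kidneys, and Lpr replicate 3 has the smallest share of Clec7a, 9.95%.

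Set against the sum of the 15 monocyte and macrophage markers, 7 of 9 genes were still higher in every Lpr kidney than in every Ctr kidney, against 1.24% of the genes tested. The exceptions were Clec7a and Clec4d. In DNase 7 of 9 lay above Ctr on this scale, against 2.39% of genes, with Clec4d and Clec5a as exceptions. Clec4n was 0.0435 to 0.0658% of the marker sum in Ctr, 0.462 to 0.995% in Lpr and 0.339 to 0.943% in DNase. Clec4e was 0.0146 to 0.0217% in Ctr, 0.0889 to 0.700% in Lpr and 0.241 to 0.493% in DNase. Clec4e is counted among the 7 in both comparisons, but its Ctr values rest on 2 counts per kidney, under the floor of 3. No separation of Clec4e is read from them. Clec12a (0.538 to 0.709% in Ctr, 0.713 to 1.43% in Lpr) and Clec5a (0.0697 to 0.124% in Ctr, 0.125 to 0.132% in Lpr) were separated by a narrow gap. The scale leans on Lyz2, which made up 11.6 to 18.5% of the marker sum in Ctr, 37.1 to 47.0% in Lpr and 34.1 to 45.5% in DNase.

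**Figure D4:**
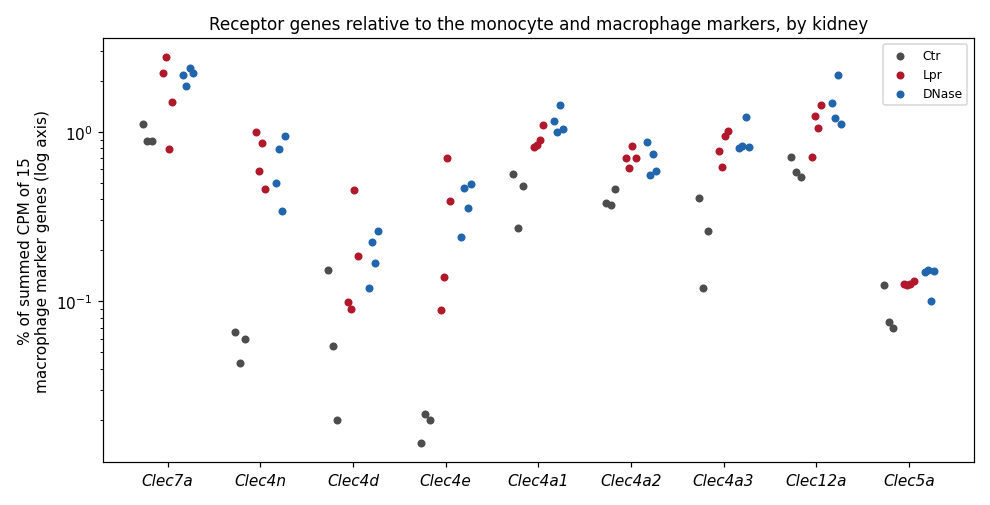
Each receptor gene as a percent of the summed CPM of 15 monocyte and macrophage marker genes, on a log axis, with 1 point per kidney for Ctr, Lpr and DNase. The Ctr and Lpr points overlap for Clec7a and Clec4d and are apart for the other 7 genes, most widely for Clec4n. The Ctr points of Clec4e rest on 2 counts per kidney, so no separation is read from them.

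Markers of other cells that carry these receptors moved as well. The 12 neutrophil markers summed to 3.75 to 8.45 CPM in Ctr, 17.5 to 51.0 CPM in Lpr and 15.5 to 29.4 CPM in DNase, 3 of the 8 tested were called higher in Lpr than in Ctr, and Ly6g, which defines neutrophils, was not tested, at 0 CPM in Ctr, 0 to 0.0844 CPM in Lpr and 0 to 0.0815 CPM in DNase. The 9 dendritic cell markers summed to 14.9 to 18.4 CPM in Ctr, 28.7 to 64.3 CPM in Lpr and 39.7 to 69.0 CPM in DNase, with 2 of 9 called higher in Lpr. T cell markers (2.90 to 4.72 CPM in Ctr and 31.0 to 92.2 CPM in Lpr, 5 of 5 called) and B and plasma cell markers (9.13 to 31.8 and 156.8 to 730.8 CPM, 3 of 6 called), cells that mostly lack these receptors, rose too. Over all genes tested, 4.65% were called higher in Lpr than in Ctr. The part of any of these cells in the receptor levels was not tested.

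Within groups the 9 genes did not vary as 1 block. After subtraction of the group means from log2 CPM, Clec4a1 and Clec4a3 varied together most closely over the 11 kidneys (Pearson r = 0.955, Spearman rho = 0.927), followed by Clec4a1 and Clec12a (r = 0.797), Clec4d and Clec4e (r = 0.772, 0.621 without Lpr replicate 3) and Clec4n and Clec5a (r = 0.766). Clec7a and Clec4e had the lowest value (r = -0.406), which was -0.0992 without Lpr replicate 3. These points share libraries and depth, and the values are descriptions. Of 13257 other genes, those whose group-centred pattern was most like the mean of the 9 were Hcls1 (r = 0.981), Lyz2 (0.951), Ncf4 (0.949), Aif1 (0.933) and Coro1a (0.928), over the same 11 kidneys.

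The receptor adaptors rose with the receptors. Fcer1g, the partner of Clec4n, Clec4d and Clec4e, was at 6.61 ± 2.54 CPM in Ctr (SD, n = 3), 35.5 ± 11.3 CPM in Lpr (n = 4) and 28.2 ± 9.8 CPM in DNase (n = 4), with a log2 fold change of 2.43 ± 0.36 SE in Lpr versus Ctr (adjusted p = 0.0036). Tyrobp (2.79 ± 0.32 SE, adjusted p = 0.0013) and Hcst (2.99 ± 0.73 SE, adjusted p = 0.033), the partners of Clec5a, were called higher as well. In all, 11 of the 25 adaptors and kinases were called higher, against 4.65% of all genes tested, and 0 lower, against 1.13%. The median log2 fold change of the 25 was 1.28, and Lcp2, a scaffold downstream of Syk, was among those called (3.30). Syk reached 1.99 (adjusted p = 0.041), just under the fold threshold. Further down the path, Card9 was at 1.28 (adjusted p = 0.0523), Bcl10 at 0.53 (adjusted p = 0.299) and Malt1 at -0.04 (adjusted p = 0.965), and none of these 3 passed the test. In Ctr the mean level was already 25.3 CPM for Bcl10 and 18.3 CPM for Malt1, against 0.97 CPM for Card9. The part of kidney cells in these levels was not tested.

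Of the inhibitory phosphatases 0 of 4 were called, and Ptpn6 (log2 fold change 0.81, adjusted p = 0.017) and Inpp5d (1.62, adjusted p = 0.015) passed the p threshold alone. Among 4 ligands and partners 3 were called higher in Lpr than in Ctr, led by Itgb2, a chain of integrins of leukocytes (3.31), and Tlr2, a receptor of bacterial lipoproteins (2.64). Sap130, the ligand of Clec4e, stood at 33.8 ± 3.5 CPM in Ctr and 36.6 ± 11.0 CPM in Lpr (log2 fold change 0.12, adjusted p = 0.843). Of the products that these receptors are known to induce, 8 of 14 tested were called higher and 0 lower. Over all genes tested, 4.65% were called higher and 1.13% lower. Il10, which dampens inflammation, had no count in Ctr and was at least 6.93-fold higher in Lpr against a floor of 3 counts per Ctr library. The chemokine Ccl3 had a pooled ratio of 18.6 (9.65 to 41.3, counting error only).

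A smaller share of the other C-type lectins rose than of the 9, but a larger share than of all genes. Of 40 others in the file 28 were tested, and 6 were called higher in Lpr than in Ctr, against 4.65% of all genes tested. Another 1 was called lower, against 1.13%. The median log2 fold change of the 28 was 0.75, against 0.03 over all genes. The largest rises were those of Cd69, an activation marker of lymphocytes (3.97 ± 0.67 SE, adjusted p = 0.0067), and Clec4b1 (3.03 ± 0.58 SE, adjusted p = 0.011), the only other tested gene of the C-type lectin list within the stretch from Clec4a1 to Clec4e. Also called higher were Mrc1 (2.85), Cd72 (2.62), Clec2i (2.38) and Ly75 (2.02). Clec2h fell by 2.08 on the log2 scale (adjusted p = 0.0014). Between Clec12a and Clec7a, 3 other genes of the list were tested and 0 were called in Lpr versus Ctr, and Clec1b, the receptor CLEC-2 of platelets, was called higher in DNase versus Ctr (2.54 ± 0.62 SE, adjusted p = 0.017). Between DNase and Lpr 0 genes were called in each of these lists, against 0% of all genes tested. Between DNase and Ctr 12 of 25 adaptors and kinases and 0 of 4 phosphatases were called higher, against 4.56% of all genes tested. So were 2 of 4 ligands and partners, 7 of 11 products and 4 of 27 other C-type lectins. Of the other C-type lectins 3 were called lower, against 1.45% of all genes.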

How the data were processed

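RNA from whole kidneys, extracted with TRIzol, was sequenced as 1 library per mouse. The authors deposited whole-number read counts per gene without normalization, and FPKM values that the authors made from the same counts by library total and gene length. The submitters' processing notes name fastp, HTSeq, DESeq2 and R 3.2.0 and the build mm10. The aligner, the annotation and the strand setting are not given in the sources used here. Mice were grouped by the labels, all columns were used (0 unused), and no 2 libraries of a group agreed within sampling noise.

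Each pair of groups was fitted alone with edgeR 4.0.16 in R 4.3.3 (quasi-likelihood test, filterByExpr, TMM, Benjamini-Hochberg adjustment over all genes tested). The members and gene lists were chosen with earlier results of these data known. Named were all members, the main signalling genes, the 2 called genes with the largest change in each list, and the 5 genes most like the members. The other C-type lectins called higher in Lpr than in Ctr were named as well. A result that this rule names is not reported here. Group-centred values were log2(CPM + 0.1), for genes of at least 1 CPM on average. Positions came from GENCODE M21. Near copies were searched with blastn 2.17.0+, and none reached 97% identity over 100 bases. Of 200 genes simulated with a log2 change of 3 among 16074 genes (Lpr versus Ctr), 193 were recovered with 5 false calls. The changed genes were drawn from those above 1 CPM on average, a level kept as their simulated Ctr mean. Members with lower Ctr levels, such as Clec4e and Clec4n, are therefore not covered, and no length slope like that of Lpr replicate 3 was simulated. DESeq2 1.42.0, limma 3.58.1 on log2(FPKM + 1), other scalings and filters, a replicate block and leaving out each library were alternatives. P-values measure the spread between mice. Libraries held 33469858 to 38460873 counts, and intervals on counts cover counting error only.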

Additional observations from a re-analysis of the deposited data

Results flagged for a closer look

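In 2 of the 18 sets of 4 kidneys examined (9 genes in Lpr and in DNase) 1 kidney lay apart from the others by Dixon's criterion, which chance meets in about 1 of 20 sets. Clec4d was at 9.383 CPM in Lpr replicate 3 and at 1.91 to 2.45 CPM in the other Lpr kidneys, a gap of 0.929 of the group's range. That library also held the length slope of -0.385. Clec12a was at 40.1 CPM in DNase replicate 3 and at 15.1 to 18 CPM in the other DNase kidneys, a gap of 0.884 of the range. The same kidney had the highest Clec4a1 and Clec4a3 of all 11, at 26.6 and 22.7 CPM.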

How the results depend on the processing

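Members called were 8 to 9 in Lpr versus Ctr when 1 library was left out, 0 to 0 in DNase versus Lpr and 9 to 9 in DNase versus Ctr. The 8 came without Ctr replicate 2 or 3, which ended the call of Clec4d. Genes called of all tested then ranged from 663 to 969, 0 to 0 and 869 to 1042. On log2(FPKM + 1), limma called 6 members in Lpr versus Ctr and 5 in DNase versus Ctr, with and without the filter. In Lpr versus Ctr Clec4d was then at 1.56 (adjusted p = 0.0374, 0.0962 without filter) and Clec4e at 1.39 (0.0533 and 0.117), and Clec5a, under the filter, was at 0.61 without it. In DNase versus Ctr Clec4d (1.42), Clec4e (1.53), Clec4a2 (1.69) and Clec5a (0.52, without filter) were under the fold threshold. It called 213 genes in all in Lpr versus Ctr (204 without filter) and 190 in DNase versus Ctr (190 without filter), and on log2(FPKM + 0.1) it called 565 and 549. Without the fold threshold edgeR called 1639 and 3493 genes, and DESeq2 called 5 in DNase versus Lpr. Directions turned only in DNase versus Lpr, where no member was called. Clec7a was at 0.0265, 0.0409 and 0.0265 under limma with pseudocounts 1 and 0.1 and without filter, and ranged from -0.46 to 0.28 with 1 library left out. Clec4e was at 0.0384 without TMM and at 0.13, 0.27 and 0.13 under limma, and ranged from -0.36 to 0.78. Clec4a1 was at -0.0073 under DESeq2, -0.0094 with RLE factors, -0.00037 without filter and -0.0035 with all 11 libraries in 1 fit, and ranged from -0.27 to 0.15. The ranges with 1 library left out were -0.67 to 0.41 for Clec4d, -0.51 to 0.0116 for Clec4a3 and -0.34 to 0.32 for Clec12a. Causes beyond a left-out library were not tested.

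Whether a shared replicate number marks paired mice is not given in the sources used here, and so few kidneys cannot decide it. Correlations of same-numbered kidneys after subtraction of group means were -0.283 to 0.174, and 3 of 8 MRL/lpr kidneys correlated best with their own number. With the replicate number as a block, Clec4d in DNase versus Ctr was not called (log2 fold change 3.37, adjusted p = 0.0626), and in DNase versus Lpr Clec4e was at 0.26 and Clec4a1 at -0.0463.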

Other observations

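Several genes through which these receptors signal stood close to the receptors in their variation between kidneys of a group. In the ranking of 13257 genes by likeness to the mean of the 9 receptors, Tyrobp was 6 (r = 0.928), Fcer1g 7 (r = 0.924) and Card9 9 (r = 0.922), over 11 kidneys. These genes were picked out after their ranks were seen, and all values come from the same libraries. Without Lpr replicate 3 the correlations were 0.929, 0.917 and 0.925.

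Of the 25 other C-type lectins tested between DNase and Lpr, 21 had a log2 fold change below 0, with a median of -0.32 against -0.02 over all genes, and 0 were called. Chosen after their values were seen, Mgl2 was at 2.11 to 41.6 CPM in Lpr and 1.23 to 3.72 CPM in DNase (log2 fold change -2.51, adjusted p = 0.82), and Clec10a was at 5.27 to 6.88 CPM in Lpr and 0.910 to 2.80 CPM in DNase (-1.49, adjusted p = 0.82), a pair of galactose-type lectins of macrophages. For 2 of the 25, Clec10a and Clec3b, every DNase kidney lay below every Lpr kidney, which held for 1.87% of all genes tested. Clec3b was at 2.08 to 8.71 CPM in Lpr and 0.874 to 2.04 CPM in DNase (-2.02, adjusted p = 0.82).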
